A study of Mus musculus with 40 samples.

Results

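A group of 9 genes that carry, load or take up lipid in the brain was examined: Apoe, Clu, Apod, Abca1, Abcg1, Lcat, Lrp1, Lrp8 and Vldlr. They were found by gene symbol in the deposited count table, where these 9 rows stood among 55539 features. All 9 passed the filter on low counts that left 15224 features for testing. RNA was sequenced from somatomotor cortex of the left hemisphere. The 40 mice were 3xTg-AD females aged 2 to 4 months, and carry the transgenes of that line, human mutant APP and MAPT among them, in every group, sham-injured mice included. Injured mice received a closed-head injury (CHI) by weight drop once daily, under anesthesia and with the skull intact, and sham-injured mice received the same anesthesia without impact and were pooled into 1 group. Tissue was collected 30 min, 4 h or 24 h after the last injury. The 39 mice analysed were 4 sham-injured, 10 after 1 injury (1xCHI, with 3, 3 and 4 mice at the 3 times), 3 after 2 injuries (2xCHI, 24 h only), 9 after 3 injuries (3xCHI, with 3, 2 and 4), 3 after 4 injuries (4xCHI, 24 h only) and 10 after 5 injuries (5xCHI, with 3, 3 and 4). One further mouse, sample 30 (3xCHI at 4 h), was left out, as the authors did because of its protein data. Mice are named below by the sample numbers in their labels.

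Neurons in the adult brain obtain much of their cholesterol from glia, mainly astrocytes, which secrete it on lipoprotein particles built around apolipoprotein E. The transporters Abca1 and Abcg1 move cholesterol and phospholipid out of the cell onto these particles, Lcat esterifies the cholesterol they carry, and lipoprotein receptors such as Lrp1, Lrp8 and Vldlr take them up. Clu and Apod are further secreted carriers, both known to increase in injured or aging brain, and liver X receptors (LXR) with their partner RXR raise transcription of Abca1, Abcg1 and Apoe when sterols accumulate.

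Total counts per sample ran from 15926014 to 27859547. Markers of neurons, astrocytes, microglia and oligodendrocytes, 10 genes each, were detected in every sample, and none of these 40 genes was at 0 in any of them. Xist lay between 476 and 1080 CPM (counts scaled to the total of their library) and no Y-linked gene of 4 exceeded 0.103 CPM. Samples 10 (5xCHI at 4 h) and 11 (5xCHI at 24 h) stood apart: their summed astrocyte markers were 6990 and 7794 CPM against 3012 to 5231 in the other 37, and their summed microglia markers were 855 and 1048 CPM against 289 to 496. Their summed neuron markers, 9104 and 7655 CPM, lay below the range of 9206 to 12834 in the other 37, and their summed oligodendrocyte markers, 8236 and 9379 CPM, above the range of 3944 to 7772. Samples numbered 1 to 18 (18 mice) and 19 to 40 (21 mice) also differed in many genes. The labels give no batch, and this split was chosen after the data had been seen. All 2xCHI and 4xCHI mice and 3 of 4 sham-injured mice fell in the second set. In bulk tissue, fewer cells of a type and less RNA per cell cannot be told apart.

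Per kilobase of exon, Apoe was by far the most abundant of the 9 genes. Its median was 885 CPM per kb, 23rd of 15223 mouse genes, followed by Clu at 224 CPM per kb, 105th. Apod came next at 52.7, then the endocytic receptor Lrp1 at 21.7 and the efflux transporter Abcg1 at 10.1 CPM per kb. The reelin and apoE receptor Lrp8 (7.88), the esterifying enzyme Lcat (7.82) and the apoE and reelin receptor Vldlr (7.47) followed closely, and Abca1 was lowest at 3.04 CPM per kb. The order was held from sample to sample for most neighbours: Apoe exceeded Clu in 39 of 39 samples, Apod exceeded Lrp1 in 39 and Vldlr exceeded Abca1 in 37. Lrp8, Lcat and Vldlr were not ordered beyond their spread, since Lrp8 exceeded Lcat in 21 and Lcat exceeded Vldlr in 23 of 39 samples.

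**Figure D1:**
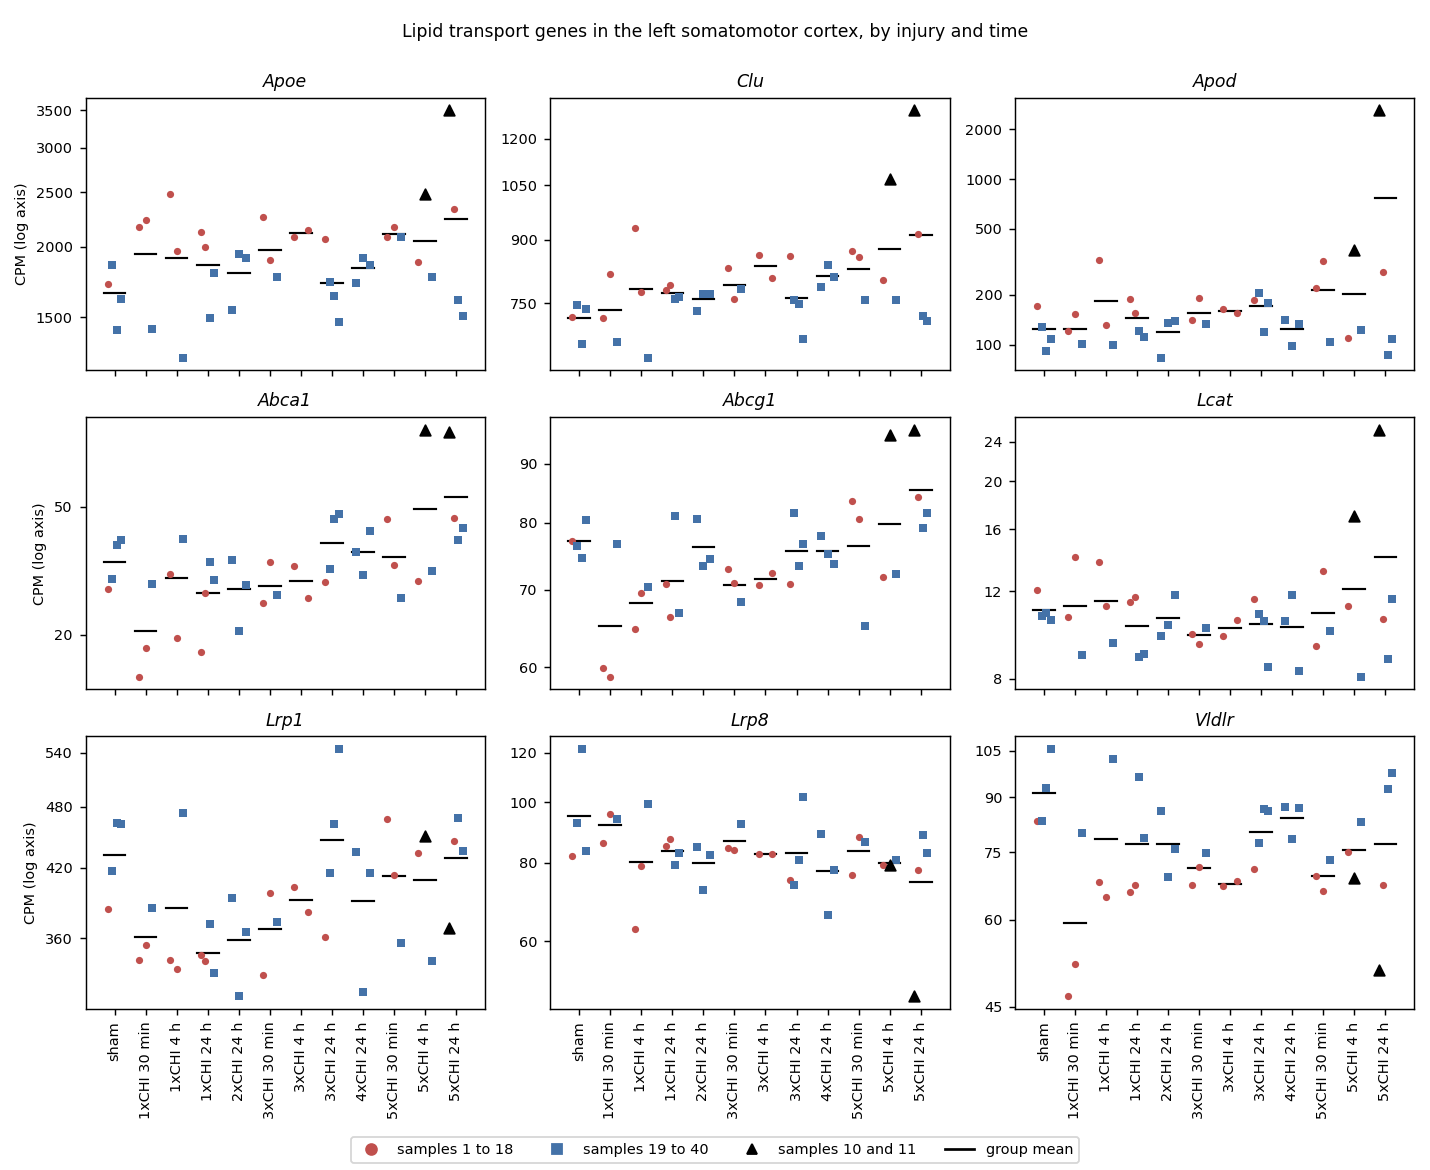
CPM of each of the 9 genes (log axis) in the 12 injury and time groups, with 1 point per mouse, red circles for samples 1 to 18, blue squares for samples 19 to 40, black triangles for samples 10 and 11, and a bar at the group mean. Samples 10 and 11 are the 2 highest points for Abca1, and the Apod level of sample 11 (2601 CPM) lies far above every other mouse.

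The efflux transporters were the 2 members whose level differed between injury numbers after adjustment over all genes. Abca1 and Abcg1 were both higher after 5xCHI than after 1xCHI at matched times, Abca1 by 0.79 on the log2 scale (1.73-fold) and Abcg1 by 0.21 (1.16-fold). Neither call held without samples 10 and 11 (adjusted p = 0.122 and 0.118) or when only the compared groups were fitted, where 0 of all genes were called and the differences were 0.80 for Abca1 (adjusted p = 0.303) and 0.22 for Abcg1 (adjusted p = 0.350). With each of the 39 mice left out in turn, Abca1 was called in 30 fits and Abcg1 in 13. Abca1 transfers cholesterol to lipid-poor apolipoprotein, and Abcg1 passes it to particles that already hold lipid.

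At 30 min after 1xCHI, Abca1 stood at 14.8, 18.2 and 28.8 CPM in samples 13, 14 and 27. It was 19.6, 30.9 and 39.7 CPM at 4 h in samples 16, 15 and 36, and 17.6, 27.0, 29.6 and 33.8 CPM at 24 h in samples 17, 18, 28 and 26. After 5xCHI it was 26.1, 32.9 and 46.0 CPM at 30 min in samples 31, 8 and 7. The 4 h values, 29.5, 31.5 and 87.1 CPM in samples 9, 32 and 10, hence held 1 mouse far above its group, and 1xCHI and 5xCHI overlapped at both early times. At 24 h the 5xCHI values of 39.5, 43.1, 46.1 and 85.8 CPM in samples 33, 34, 12 and 11 all lay above the highest 1xCHI value at that time. Averaged over the 3 times, the log2 difference was 0.79 ± 0.19 (SE, 10 against 10 mice, edgeR quasi-likelihood test, adjusted p = 0.0340 over 15224 genes). Sham-injured mice, at 27.8, 29.9, 38.0 and 39.4 CPM, lay between: Abca1 was −0.37 ± 0.25 after 1xCHI (adjusted p = 0.405) and 0.46 ± 0.26 after 5xCHI (adjusted p = 0.471) relative to sham, neither of which passed the test.

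Abcg1 was steadier from mouse to mouse. Sham-injured mice had 74.5, 76.4, 77.1 and 80.5 CPM. After 1xCHI the values were 58.8, 59.9 and 76.7 CPM at 30 min, 64.7, 69.6 and 70.4 CPM at 4 h, and 66.3, 66.8, 70.7 and 81.1 CPM at 24 h, so that 8 of 10 injured mice lay below the lowest sham-injured mouse. After 5xCHI they were 65.1, 80.6 and 83.6 CPM at 30 min, 71.8, 72.2 and 95.2 CPM at 4 h, and 79.1, 81.6, 84.2 and 96.3 CPM at 24 h. The injury numbers overlapped at 30 min and 24 h and did not at 4 h. The log2 difference between 5xCHI and 1xCHI was 0.21 ± 0.055 (SE, adjusted p = 0.0441). Relative to sham, Abcg1 was −0.16 ± 0.070 after 1xCHI (adjusted p = 0.266) and 0.06 ± 0.071 after 5xCHI (adjusted p = 0.676).

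Over all 15224 genes, 167 (1.1%) were called in 5xCHI against 1xCHI, 78 of them higher after 5xCHI, against 2 of the 9 members. Single mice decided that count: it was 0 without sample 7 or 13, 3 without sample 10, 5 without sample 8, 12 without sample 16, 37 without sample 14 and 640 without sample 27. At an unadjusted p under 0.05 the share was 16.4% of all genes and 5 of 9 members, which besides Abca1 and Abcg1 were Apod, Lrp1 and Clu. All 5 were higher after 5xCHI. Without samples 10 and 11 Abca1, Abcg1 and Lrp1 were left at that level. The median log2 difference of the 9 members was 0.16, against −0.00147 over all genes tested, and was 0.07 without samples 10 and 11 and −0.03 in samples 19 to 40 alone.

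**Figure D2:**
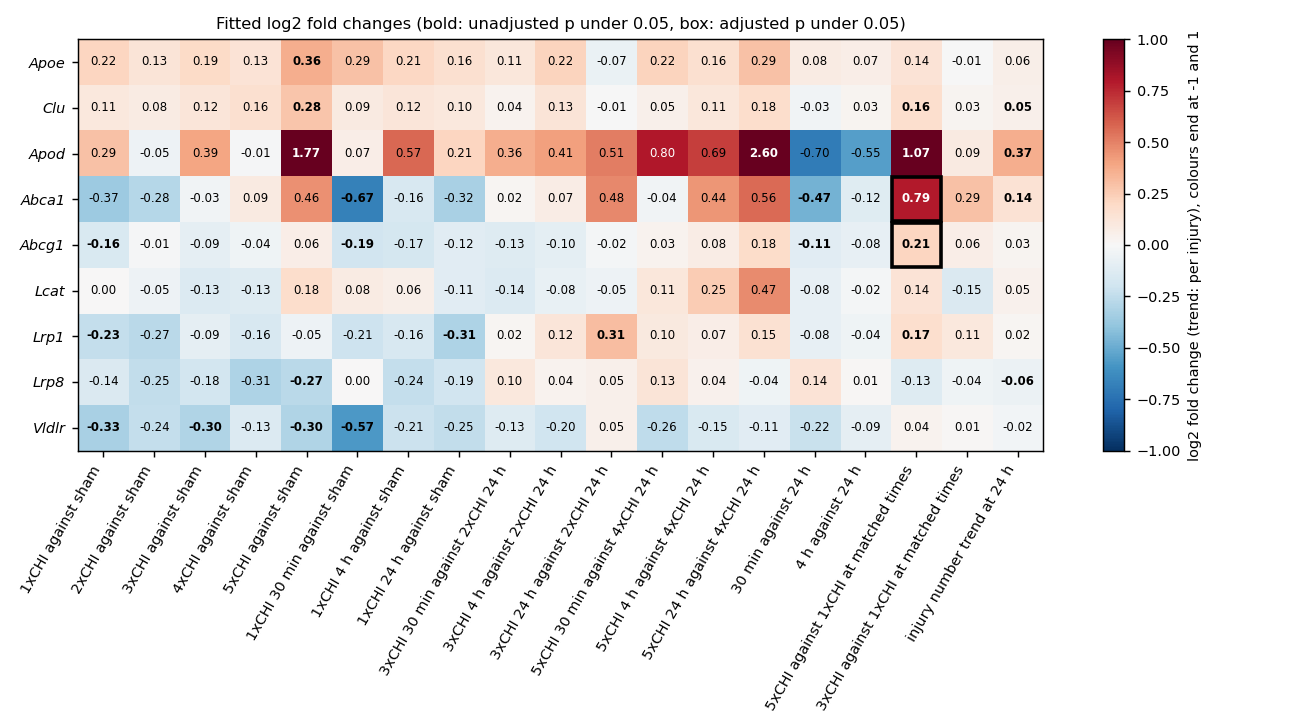
Fitted log2 fold changes of the 9 genes (rows) in 19 comparisons (columns), from red (higher in the first-named group) to blue (lower), with unadjusted p under 0.05 in bold and adjusted p under 0.05 boxed. The 2 boxes are Abca1 (0.79) and Abcg1 (0.21) in 5xCHI against 1xCHI, and the trend column gives the change per added injury at 24 h.

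Split by sample number, both differences were seen in samples 1 to 18 and were near 0 in samples 19 to 40. The differences of log2 means by set do not match times, unlike the edgeR fits, which in samples 19 to 40 alone gave values of the opposite sign for Abca1 (−0.04 ± 0.17), Abcg1 (−0.03 ± 0.067) and Lrp1 (−0.08 ± 0.11), each within 1 SE of 0. Because the split was chosen with these data in view, the values by set are a description, and the p-values of fits within or between the sets are not independent evidence. In samples 1 to 18, Abca1 was 14.8 to 30.9 CPM in 6 mice after 1xCHI and 29.5 to 87.1 CPM in 6 after 5xCHI. Their log2 means differed by 1.27. In samples 19 to 40 it was 28.8 to 39.7 CPM in 4 mice after 1xCHI and 26.1 to 43.1 CPM in 4 after 5xCHI, a log2 difference of 0.07. The 1xCHI mice of samples 1 to 18 were thus low, at 21.3 ± 6.22 CPM (SD, n = 6), below the 33.0 ± 5.01 CPM (SD, n = 4) of the 1xCHI mice of samples 19 to 40. The same 6 mice also had lower summed neuron markers (9696 ± 485 against 11987 ± 109 CPM), and higher means of summed blood (301 ± 149 against 169 ± 76.2 CPM) and meningeal fibroblast markers (231 ± 162 against 100.5 ± 8.56 CPM), whose part in their transporter levels was not tested. Abcg1 did not overlap in samples 1 to 18, with 58.8 to 70.7 CPM after 1xCHI and 71.8 to 96.3 CPM after 5xCHI, a log2 difference of 0.39. In samples 19 to 40 its ranges were 66.8 to 81.1 and 65.1 to 81.6 CPM, a log2 difference of 0.01.

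Lrp1 followed the same split. In samples 1 to 18 it was 337 to 355 CPM in the 6 mice after 1xCHI and 368 to 467 CPM in the 6 after 5xCHI, without overlap (log2 difference 0.31), and in samples 19 to 40 the difference was 0.04. Fitted on samples 1 to 18 alone, edgeR called 3 of the 9 members, Abca1 (1.32, adjusted p = 0.00991), Abcg1 (0.37, adjusted p = 0.0082) and Lrp1 (0.30, adjusted p = 0.0180), beside 2205 of 15224 genes (14.5%). On samples 19 to 40 alone it called 0 members beside 7 genes in all (0.046%), and Apoe (0.31, adjusted p = 0.585) was the 1 member with an unadjusted p under 0.05. With the sample set as a covariate over all 39 mice, Abca1 (0.81, adjusted p = 0.0242) and Abcg1 (0.22, adjusted p = 0.0345) were called, beside 385 genes in all (2.53%).

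No difference between the sets passed adjustment. Over the 20 mice, the injury effect on Abca1 was 1.25 ± 0.34 larger on the log2 scale in samples 1 to 18 (edgeR interaction term, adjusted p = 0.0885), and that on Abcg1 was 0.37 ± 0.11 larger (adjusted p = 0.0949). Of all 15224 genes 0 were called (0%), and 3145 had an unadjusted p under 0.05. For Lrp1 the term was 0.26 ± 0.15 (adjusted p = 0.319).

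**Figure D3:**
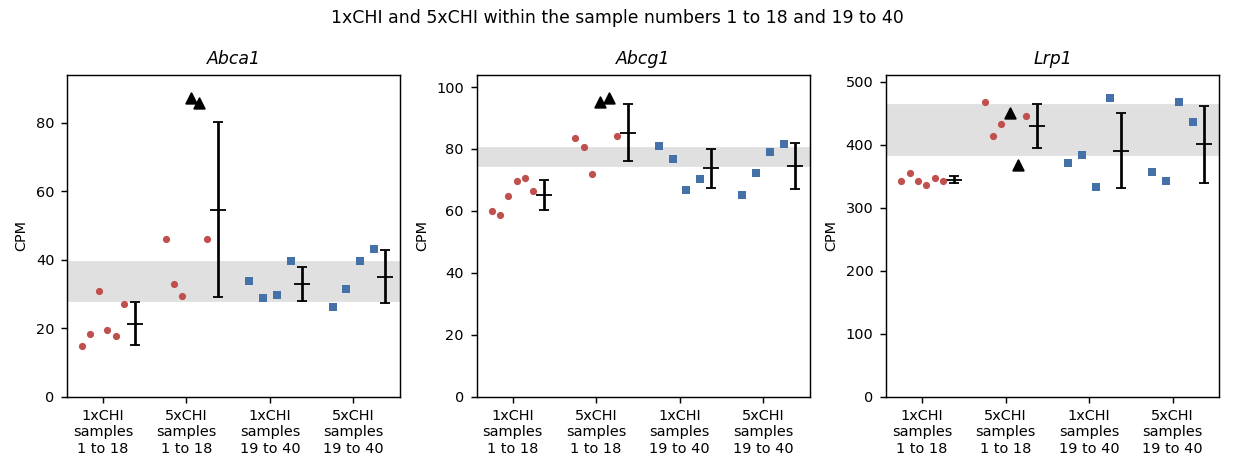
CPM of Abca1, Abcg1 and Lrp1 (linear axes from 0) in mice after 1xCHI and 5xCHI, separately for samples 1 to 18 (red circles, black triangles for samples 10 and 11) and 19 to 40 (blue squares), with mean and SD beside each group and the range of the 4 sham-injured mice in grey. In samples 1 to 18 the 5xCHI mice lie above the 1xCHI mice, with an overlap only for Abca1 (29.5 against 30.9 CPM), and in samples 19 to 40 the ranges overlap for all 3 genes.

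Markers of several cell types differed in the same comparison. From 1xCHI to 5xCHI, 10 of 10 microglia markers were higher with a median log2 difference of 0.54, and 2 of them were called (Csf1r and Cx3cr1). Of the astrocyte markers 10 of 10 were higher, with a median of 0.21 and 0 called, although 5 had an unadjusted p under 0.05. Of 10 neuron markers 1, Tubb3, was called and was lower (−0.35, adjusted p = 0.0187). All 3 choroid plexus markers tested were higher, with a median of 1.77, and Ttr was called (4.13, adjusted p = 0.0385). Of 5 blood genes 0 were higher, with a median of −0.54, 0 called and 2 at an unadjusted p under 0.05. The summed choroid plexus markers were 2501 CPM in sample 31, 1320 in sample 32 and 417 in sample 12, against 10.7 to 47.5 CPM in the 10 mice after 1xCHI. In samples 1 to 18 the astrocyte markers summed to 3620 ± 515 CPM after 1xCHI and 5688 ± 1363 CPM after 5xCHI (SD, n = 6 each), and in samples 19 to 40 to 4567 ± 397 and 4308 ± 414 CPM (SD, n = 4 each). Over the 10 mice after 5xCHI, the microglia markers summed to a mean of 509 CPM and the astrocyte markers to 5136 CPM. Without samples 10 and 11 these means were 399 and 4572 CPM. They were 345 and 3999 CPM after 1xCHI, and 367 and 4655 CPM in sham-injured mice. The part of these markers in the Abca1 and Abcg1 result was not tested. Without samples 10 and 11, the fitted differences were 0.48 for Abca1 (adjusted p = 0.122) and 0.16 for Abcg1 (adjusted p = 0.118), and 8 of 15224 genes (0.0525%) were called, none of them a member. Within samples 1 to 18, the differences of log2 means without those 2 mice were 0.87 for Abca1 and 0.30 for Abcg1, with 4 against 6 mice.

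The Abca1 promoter is shown because Abca1 carries the largest called difference and is a textbook LXR target. The gene lies at chr4:53030787-53159895 on the minus strand (GRCm38). RefSeq (GRCm38.p6) gave the window chr4:53159846-53160145, read 5′ to 3′ on the minus strand from 250 bases before to 50 bases after a transcription start, with an E-box (CACGTG) and a relaxed LXR-type repeat in capitals.
Abca1 promoter: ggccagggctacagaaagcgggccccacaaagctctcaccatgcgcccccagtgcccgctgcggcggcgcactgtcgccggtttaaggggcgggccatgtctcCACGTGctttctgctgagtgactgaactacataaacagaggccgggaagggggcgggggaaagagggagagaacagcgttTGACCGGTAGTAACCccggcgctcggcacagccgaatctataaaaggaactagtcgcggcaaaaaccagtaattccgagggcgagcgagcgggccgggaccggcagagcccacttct
The strict LXR repeat, AGGTCA repeated in the same direction after a gap of 4 bases, was in 5 of 32851 mouse promoters of this length (0.0152%) and in none of the 12 windows held for 7 members (all but Clu and Abcg1). A relaxed form, with GGTTA and GGTCA in one direction and 5 bases between them, was searched after the data had been seen. It occurred in 16 promoters (0.0487%), Abca1 among them, where it lies on the opposite strand of the printed sequence 67 bases before the start. The E-box was in 7.15% of promoters and, of the members, in Abca1 alone, 147 bases before the start. The Sp1 box GGGCGG, on either strand, was in 35.7% of promoters and in windows of Abca1 (at 2 places), Lrp1 and Vldlr. The single AGGTCA half-site was in 16.3% of promoters and in 1 window of Lrp8. A match of letters is a description of the sequence and not a bound site.

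No secreted carrier passed adjustment against sham. Apoe (chr7:19696109-19699188, minus strand) is the main apolipoprotein of brain lipoproteins. It was 1424, 1618, 1715 and 1859 CPM in sham-injured mice, and after 5xCHI ran from 1505 to 3498 CPM with a median of 2081. At 24 h after 5xCHI samples 34, 33, 12 and 11 had 1505, 1608, 2338 and 3498 CPM, so that 2 mice lay within the sham-injured range and 2 above it. Samples 33 and 34 are in the set of samples 19 to 40, as are 3 of the 4 sham-injured mice. After 1xCHI, the 6 mice of samples 1 to 18 had 1968 to 2484 CPM, above the sham-injured range, and the 4 of samples 19 to 40 had 1270 to 1797 CPM. The part of the sample set in the difference from sham was not tested. The log2 difference from sham was 0.36 ± 0.15 (SE, adjusted p = 0.397) and did not pass the test. It was 0.22 without samples 10 and 11.

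Clu (chr14:65968483-65981547, plus strand), which encodes the secreted chaperone clusterin, or apolipoprotein J, was 668, 721, 738 and 747 CPM in sham-injured mice. After 5xCHI it ran from 714 to 1301 CPM with a median of 828.6. Of the 10 mice, 8 lay above the highest sham-injured value, and samples 33 and 34 lay below it. In samples 1 to 18 Clu ran from 802 to 1301 CPM after 5xCHI and from 720 to 929 CPM after 1xCHI. In samples 19 to 40, which hold 3 of the 4 sham-injured mice, these ranges were 714 to 758 and 642 to 764 CPM. The part of the sample set in the difference from sham was not tested. The log2 difference was 0.28 ± 0.098 from sham (adjusted p = 0.372) and 0.16 ± 0.078 from 1xCHI (adjusted p = 0.290). Without samples 10 and 11, these values were 0.15 and 0.06.

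Apod (chr16:31296192-31314808, minus strand), a lipocalin secreted by oligodendrocytes and other glia, varied most. Sham-injured mice had 91.6, 108, 128 and 171 CPM, and 4xCHI mice 98.3, 133 and 141 CPM. At 24 h after 5xCHI, samples 33 and 34 stood at 86.4 and 108 CPM, sample 12 at 273 CPM and sample 11 at 2601 CPM. So 2 of these 4 mice were at or below the sham-injured level, and the fitted difference from 4xCHI of 2.60 ± 0.72 (adjusted p = 0.635) fell to 0.33 when sample 11 was left out. At the earlier times after 5xCHI the values were 103, 221 and 319 CPM at 30 min and 110, 123 and 371 CPM at 4 h, of which 3 lay above the sham-injured range. Sample 15, at 4 h after 1xCHI, had 324 CPM. No mouse of samples 19 to 40 exceeded 205 CPM. Relative to sham, Apod was 1.77 ± 0.61 after 5xCHI (adjusted p = 0.372), and 0.43 without samples 10 and 11. Those 2 mice had the highest summed astrocyte, microglia and oligodendrocyte markers, whose part in the Apod level was not tested. Over the 24 h groups, the test for any difference among injury numbers gave an adjusted p of 0.445. The summed meningeal fibroblast markers were highest in sample 15, at 553 CPM against a median of 131 over 39 samples, and their part in its Apod level was not tested.

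Lcat (chr8:105939551-105943382, minus strand), which esterifies cholesterol on secreted particles, passed no test. It was 10.5, 10.7, 10.8 and 12.1 CPM in sham-injured mice and 8.75, 10.5, 11.6 and 25.4 CPM at 24 h after 5xCHI, where sample 11 alone was high. The log2 difference from 4xCHI was 0.47 ± 0.24 (adjusted p = 0.781), and 0.04 without sample 11. The next highest Lcat value of all 39 mice, 17.0 CPM, was in sample 10.

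Most differences of the receptors from sham were negative, and none passed adjustment. Vldlr (chr19:27216484-27254231, plus strand) was 83.1, 83.3, 92.8 and 106 CPM in sham-injured mice. At 30 min after 1xCHI it was 46.6, 51.8 and 79.9 CPM in samples 13, 14 and 27, all below the sham-injured range. This was its largest difference from sham, −0.57 ± 0.19 (adjusted p = 0.167). It was −0.33 ± 0.14 over all 1xCHI mice (adjusted p = 0.262), −0.30 ± 0.15 after 3xCHI (adjusted p = 0.911) and −0.30 ± 0.14 after 5xCHI (adjusted p = 0.421), 3 values that share the same 4 sham-injured mice. Vldlr also differed between the sets, with 60.7 ± 9.17 CPM (SD, n = 6) in samples 1 to 18 and 89.3 ± 11.8 CPM (SD, n = 4) in samples 19 to 40 after 1xCHI. Within samples 19 to 40, the difference of 1xCHI from sham was −0.06.

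Lrp1 (chr10:127538161-127621148, minus strand), a large endocytic receptor of neurons and astrocytes that also clears amyloid-β, was 384, 417, 462 and 463 CPM in sham-injured mice. At 24 h after 1xCHI it was 333, 343, 347 and 371 CPM, all below the sham-injured range (log2 difference −0.31 ± 0.13, adjusted p = 0.703). Over all 1xCHI mice the difference was −0.23 ± 0.11 (adjusted p = 0.267), with sample 36 (473 CPM) above every sham-injured mouse. At 24 h after 3xCHI the values were 361, 415, 462 and 545 CPM against 317, 365 and 393 CPM after 2xCHI (0.31 ± 0.14, adjusted p = 0.943), and those groups overlapped. Leaving out single mice gave 0.20 (without sample 38) to 0.40 (without sample 2).

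Lrp8 (chr4:107802261-107876840, plus strand), a neuronal receptor for reelin and apoE, was 82.0, 83.5, 92.5 and 122 CPM in sham-injured mice. After 5xCHI it ran from 49.0 CPM in sample 11 to 88.7 CPM, with a median of 80.1. Its log2 difference from sham was −0.27 ± 0.12 (adjusted p = 0.405), and was −0.20 without samples 10 and 11 and −0.13 without sample 35, a sham-injured mouse. Antisense genes overlap Lrp8 (Lrp8os1 and Lrp8os2), Lrp1 (Gm16217) and Lcat (Gm16156), and whether reads were counted by strand was not given in the sources used here, so a share of their reads may belong to those partners. Abcg1 (chr17:31057675-31117988, plus strand) overlaps Gm25447 on its own strand.

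Against sham, no member and no gene was called at an adjusted p under 0.05 (0% of 15224) in any of the 5 comparisons of injury number, nor in 1xCHI at 30 min, 4 h or 24 h. At an unadjusted p under 0.05 the counts were 3 of 9 members beside 17.2% of all genes after 1xCHI, 1 beside 3.86% after 3xCHI and 5 beside 11.6% after 5xCHI. In DESeq2 24 genes were called after 1xCHI and 10 after 5xCHI, none of them a member. Of the 5 members after 5xCHI, the carriers Apoe, Clu and Apod were higher and the receptors Lrp8 and Vldlr were lower. At 30 min after 1xCHI there were 3 members, Abca1 (−0.67 ± 0.33, adjusted p = 0.251), Abcg1 (−0.19 ± 0.092, adjusted p = 0.249) and Vldlr, beside 19.7% of all genes. Without sample 27, Abcg1 and Vldlr were called (adjusted p = 0.0291 and 0.0106), beside 3601 genes. At 24 h after 1xCHI there was 1, Lrp1, beside 6.02%. After 2xCHI, after 4xCHI and at 4 h after 1xCHI no member had an unadjusted p under 0.05, where 678, 259 and 1603 genes did. The median of the 9 members was −0.14 after 1xCHI and 0.18 after 5xCHI, against 0.013 and 0.011 over all genes. The value of 0.18 was that of Lcat, which was 0.0005 without sample 11.

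The successive comparisons of 3xCHI with 2xCHI and of 5xCHI with 4xCHI called no gene (0%). At 24 h the only members at an unadjusted p under 0.05 were Lrp1 in the first (4.57% of genes) and Apod in the second (6.44% of genes). At 30 min and 4 h there was no such member, beside 286 to 969 genes. From 1xCHI to 3xCHI at matched times, 0 genes were called (13 in DESeq2, no member), and 0 members were among the 1442 genes with an unadjusted p under 0.05. Abca1 differed there by 0.29 ± 0.20 (adjusted p = 0.633) and Abcg1 by 0.06 ± 0.057 (adjusted p = 0.720).

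Between 1 and 5 injuries at 24 h, Abca1 was 20.5, 28.5 and 34.1 CPM after 2xCHI, 29.2, 32.0, 46.0 and 47.4 CPM after 3xCHI, and 30.7, 36.3 and 42.0 CPM after 4xCHI. The range after 3xCHI overlapped both of the others. The trend over injury number at 24 h called none, with 4 members against 5.78% of genes at an unadjusted p under 0.05. These were Abca1 at 0.14 ± 0.051 log2 per injury, Apod at 0.37 ± 0.11, Clu at 0.05 ± 0.021 and Lrp8 at −0.06 ± 0.026, with adjusted p of 0.760, 0.760, 0.83 and 0.857. Without sample 11 they were 0.10, 0.04, 0.02 and −0.03. The test for any difference among injury numbers at 24 h held 3 members, Abca1, Lrp1 and Apod, against 4.58% of genes at an unadjusted p under 0.05, and 0 genes after adjustment.

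No member was called between times after injury. Comparing 30 min with 24 h across injury numbers, 22 genes (0.145%) were called. Abca1 was lower at 30 min by a log2 difference of −0.47 ± 0.19 (adjusted p = 0.452) and Abcg1 by −0.11 ± 0.053 (adjusted p = 0.474), beside 10.5% of genes at an unadjusted p under 0.05. At 4 h against 24 h 1 gene (0.00657%) was called, and 5 genes (0.0328%) differed at any time point, none of them a member. In both of these tests 0 of the 9 members had an unadjusted p under 0.05. No member and no gene differed in time course between injury numbers (0% called), where 401 genes and 0 members had an unadjusted p under 0.05.

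Some members were correlated across the 39 mice. All correlations are of log2 CPM from shared libraries and tissue pieces, 36 pairs were computed, and 1e-05 is the smallest p that 100000 permutations can give. Apoe and Clu, carriers made mostly by astrocytes, were the closest pair by Pearson's r over 39 mice, with an r of 0.88 and a Spearman's rho of 0.82 (permutation p = 1e-05 for each). They held at r = 0.89 in samples 1 to 18, 0.83 in samples 19 to 40 and 0.81 without the 2 mice farthest from the median Apoe level. Apoe and Vldlr ran in opposite directions, with r = −0.86 and rho = −0.885, the latter larger in size than that of Apoe and Clu.

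Abca1 and Abcg1 had r = 0.78 and rho = 0.71, and r = 0.67 without samples 10 and 11. The relation was closer in samples 1 to 18 (0.88) than in samples 19 to 40 (0.42), a difference that was not tested. Abca1 and Apoe, a transporter and the particle it fills, had r = 0.02 over 39 mice and −0.50 without samples 10 and 11. Its sign differed between the sets, with 0.50 in samples 1 to 18 and −0.60 in samples 19 to 40, a difference that was not tested. The positive value rested on samples 10 and 11, since r in samples 1 to 18 was −0.07 without them. Abca1 and Lrp1 went the other way, from 0.58 over 39 mice to 0.75 without those 2. The Lcat correlations with Apod (0.75) and Clu (0.73) fell to 0.35 and 0.36 without samples 10 and 11, and so rested in part on those mice. In all, 8 of the 36 pairs had r of the opposite sign without them, among them Lcat with Abca1 (0.27 to −0.41) and with Abcg1 (0.24 to −0.33).

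**Figure D4:**
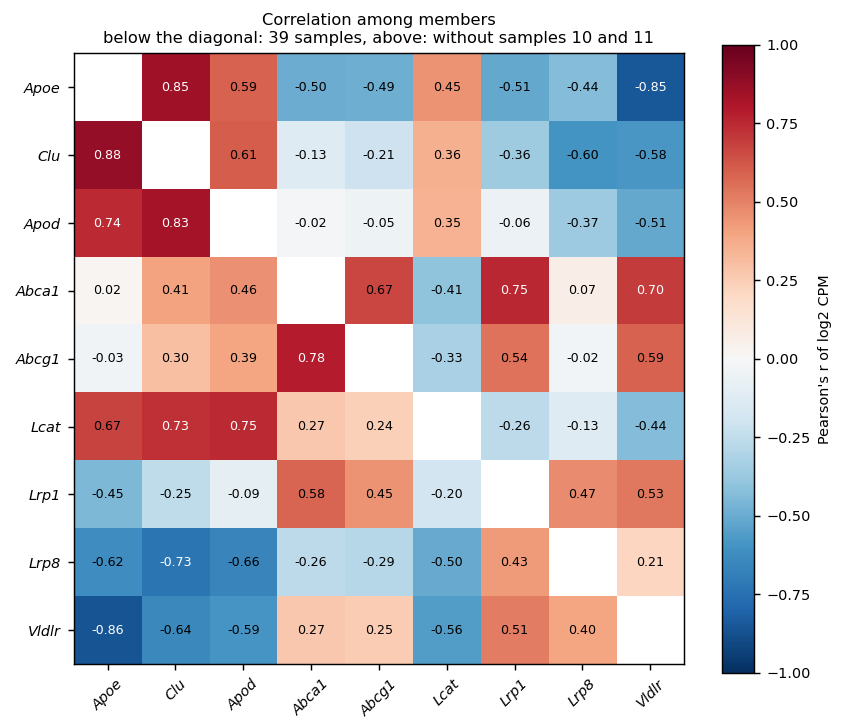
Pearson's r of log2 CPM for the 36 pairs of the 9 genes, below the diagonal over 39 mice and above it over the 37 without samples 10 and 11, from blue (−1) to red (1). Apoe and Clu are red on both sides (0.88 and 0.85), Apoe and Vldlr blue on both (−0.86 and −0.85), and Lcat with Abca1 turns from red (0.27) to blue (−0.41).

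Abca1 tracked the summed astrocyte markers closely, with r = 0.92 and rho = 0.85 over 39 mice (permutation p = 1e-05 each), 0.86 without samples 10 and 11, and 0.95 and 0.77 in the 2 sets. The marker list holds none of the 9 genes. Abcg1 followed the same sum at r = 0.74, and 0.58 without those samples. Apoe did not, at r = 0.16, but was inversely related to the summed neuron markers (−0.75, and −0.61 without samples 10 and 11), to which Vldlr was directly related (0.72 and 0.70). Clu and Apod followed the summed microglia markers at r = 0.77 each, which fell to 0.35 and 0.34 without samples 10 and 11.

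**Figure D5:**
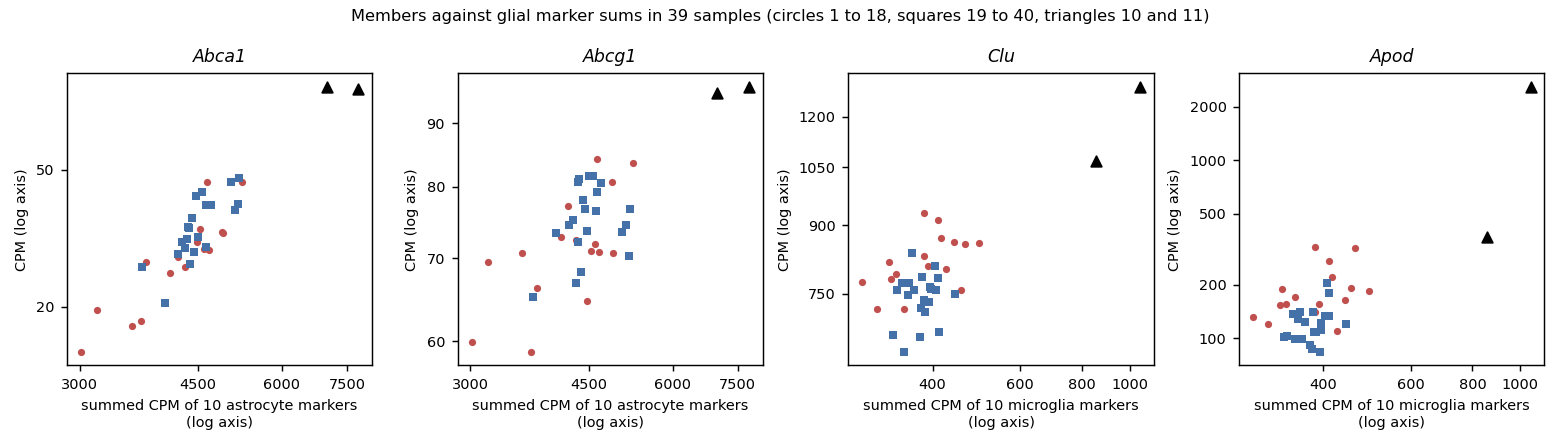
CPM of Abca1 and Abcg1 against the summed CPM of 10 astrocyte markers, and of Clu and Apod against that of 10 microglia markers, in 39 mice on log axes (red circles for samples 1 to 18, blue squares for 19 to 40, black triangles for samples 10 and 11). The Abca1 points follow the marker sum among the other 37 mice too (r = 0.86), and for Apod and Clu samples 10 and 11 lie far to the right.

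Among all genes tested, those most like each member by Pearson's r of log2 CPM over 39 mice differed from member to member. For Apoe they were Etfb (0.94), Rps14 (0.94) and Rps4x (0.92), a mitochondrial electron transfer subunit and 2 ribosomal proteins. For Clu the first was Aldoc (0.91), an aldolase of astrocytes, and for Abca1 they were Cyfip1 (0.91), the astrocyte glutamate transporter Slc1a3 (0.90) and Gna13 (0.90). Among the genes most like Abcg1 was the LXR partner Rxra (0.80). Apod was most like Tmem176b (0.93), Lcat like Tmbim6 (0.84) and Lrp1 like Cic (0.91). The neuronal scaffold gene Shank2 was first for Lrp8 (0.88), and Pdzd8 (0.95), a lipid transfer protein of the endoplasmic reticulum, was first for Vldlr. Without samples 10 and 11, Tmem176b stayed first for Apod (0.83) and Pdzd8 for Vldlr (0.94). For the other members the first gene changed, among them to Grin2c for Lcat (0.68), Ston1 for Abca1 (0.91) and Apoe for Clu (0.85). Lcat and Tmbim6 then had r = 0.57.

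Another 53 genes of brain lipid handling were listed, and 44 of them passed the filter on low counts. From 1xCHI to 5xCHI, 1 of the 44 was called and it was higher, Srebf1, the transcription factor of fatty acid synthesis and itself an LXR target. Its mean was 42.2 ± 2.30 CPM in the 4 sham-injured mice, 36.4 ± 5.26 CPM in the 10 after 1xCHI and 55.0 ± 25.4 CPM in the 10 after 5xCHI (SD), with 69.5 and 122 CPM in samples 10 and 11. Its log2 difference was 0.56 ± 0.13 (adjusted p = 0.0340), and 0.31 without those 2 mice (adjusted p = 0.0554), when it was no longer called. It was called in 30 of the 39 fits that left out 1 mouse. None of the 44 was called when only the compared groups were fitted, and 4 were in DESeq2. The 1 call in 44 stands beside 1.1% of all genes. At an unadjusted p under 0.05, 10 of the 44 were higher and 3 lower, beside 16.4% of all genes, with a median of 0.06 over the 44 (0.03 without samples 10 and 11).

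By role, the list of LXR, RXR and SREBP regulators had 2 of 7 higher, Srebf1 and Rxra (0.20, adjusted p = 0.100), before adjustment. The counts by role that follow use the same level, with 16.4% of all genes beside them. In this first list Nr1h3, the gene of an LXR, went the other way. Its difference lay between −0.43 and −0.16 when single mice were left out, and was −0.51 ± 0.18 without samples 10 and 11 (adjusted p = 0.142). Lipoprotein receptors and their partners had 4 of 13 higher, among them Trem2 (0.83, adjusted p = 0.0719), a microglial receptor for lipids and apolipoproteins, and Mylip (0.26, adjusted p = 0.0822), an LXR target that marks lipoprotein receptors for degradation. Trem2 was 38.0 and 54.3 CPM in samples 10 and 11 against a sham-injured mean of 9.29 ± 1.26 CPM (SD, n = 4), and without those 2 mice its difference was 0.27. Other ABC transporters had 2 of 9 higher, and cholesterol storage and export genes 2 of 7 higher, among them Soat1 (0.21), which esterifies cholesterol for storage. Without samples 10 and 11 Soat1 was 0.13 and no longer at that level. Secreted carriers had 2 of 5 lower, Ptgds (−0.70) and Rbp4 (−0.30). Ptgds is also made by meningeal cells, and 1 mouse after 1xCHI had 3551 CPM against a 1xCHI median of 790. Without sample 15 the differences were −0.32 for Ptgds and −0.19 for Rbp4. The meningeal fibroblast markers had a median of −0.45 in the same comparison, with 0 of 10 called and 3 at an unadjusted p under 0.05, and their part in these values was not tested. Of the 3 fatty acid binding proteins 1 was lower at that level, Fabp3 (−0.13). Fabp7, which is found in astrocytes and radial glia, had 34.2 and 57.1 CPM in samples 10 and 11 against 11.1 to 26.2 CPM in the 10 mice after 1xCHI, and its difference was −0.04 with those 2 mice and −0.70 without them (adjusted p = 0.0670).

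Against sham, 0 of the 44 were called after 5xCHI, and 3 higher and 3 lower had an unadjusted p under 0.05, beside 11.6% of all genes. The higher ones were Trem2 (1.00), Npc2 (0.34), which carries cholesterol out of lysosomes, and Srebf1 (0.37), at 0.36, 0.09 and 0.08 without samples 10 and 11. Among the lower ones were Srebf2 (−0.30), the transcription factor of cholesterol synthesis and uptake, and Lrp4 (−0.23). The adjusted p-values of these 5 genes lay between 0.367 and 0.423.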

How the data were processed

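Bulk RNA sequencing of the left somatomotor cortex of 40 mice was analysed. The authors deposited estimated counts per gene, which a sequencing company had made, with no normalization or filter. Per the labels, the genome build was mm10. The column names are those of gene-level Salmon output, and its version and settings are not given in the sources used here. Of the values, 4.46% were not whole, and all were rounded. Gene identifiers matched GENCODE M21 (GRCm38). A feature was dropped when more than 4 of the 39 samples had under 10 counts, which kept 15224. Total counts of 15926014 to 27859547 per sample limit precision most for the lower genes, Lcat and Abca1.

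Levels are CPM on all counts. Differences were fitted with edgeR 4.0.16 (TMM, quasi-likelihood test) in R 4.3.3, in fits of 6 injury groups and of 12 injury and time groups, with Benjamini-Hochberg adjustment over all genes tested and SE from the log2 fold change and F. DESeq2 1.42.0 was the alternative tool. Correlations were tested with 100000 permutations, two-sided (scipy 1.17.1). The fits were tested on simulated data.

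The members, gene lists, sample split and tests were chosen with earlier results of these data known, and the members named for a comparison were those with an unadjusted p under 0.05 in it or an outlying sample. Alternatives were library size and upper-quartile scaling, other filters, all 40 samples, fits of the compared groups alone, covariates and leaving out each sample. Leaving out samples 10 and 11, the fits of samples 1 to 18 and 19 to 40 alone, the interaction with the sample set and the relaxed LXR repeat were added after seeing the data. Nothing in the labels names litters or cages, so p-values measure the spread between these mice. The values of a few other genes are not reported here.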

Additional observations from a re-analysis of the deposited data

Results flagged for a closer look

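Of 63 groups of member values tested for a single stray sample, 9 held one, where chance alone flags about 1 in 20 groups, or 3.15. Sample 11 (5xCHI at 24 h) gave 7 of them. Within 5xCHI at 24 h it was far from the other 3 mice in Apod (2601 CPM), Abca1 (85.8 CPM) and Lcat (25.4 CPM). Within all 10 5xCHI mice it was far above the rest in Apoe (3498 CPM), Apod (2601 CPM) and Lcat (25.4 CPM) and far below them in Lrp8 (49.0 CPM). The other 2 were in 1xCHI: Apod in sample 15 (324 CPM, at 4 h) and Lrp1 in sample 36 (473 CPM, at 4 h) stood above the other 9 mice. Sample 11 also had the highest summed astrocyte, microglia and oligodendrocyte markers (7794, 1048 and 9379 CPM), and sample 15 the highest summed meningeal fibroblast markers (553 CPM). The part of these in the member values was not tested.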

How the results depend on the processing

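The number of members called in 5xCHI against 1xCHI, 2 as reported, was 1 without a filter on low counts, with edgeR's own filter and with the meningeal markers as a covariate, and 0 when only the compared groups were fitted, without samples 10 and 11 and in samples 19 to 40 alone. Leaving out single samples gave 0 to 2 members: Abca1 ranged from 0.57 to 0.89 (adjusted p 0.0140 to 0.124, called in 30 of 39 fits) and Abcg1 from 0.18 to 0.25 (adjusted p 0.0113 to 0.131, called in 13). The 167 genes called became 0 without sample 7 or 13, 3 without 10, 5 without 8, 12 without 16, 37 without 14 and 640 without 27. For any injury number at 24 h, 1 member, Apod, was called in DESeq2 (adjusted p = 0.0159, 8 genes in all) and without a filter (0.0302, 5 genes in all), and leaving out single samples gave 0 to 1 (sample 33, 0.0396). For 1xCHI at 30 min against sham it gave 0 to 2, Abcg1 (0.0291) and Vldlr (0.0106) without sample 27, when 3601 genes were called. Samples 19 to 40 alone turned the direction of Apod in 5xCHI against sham (−0.0463) and 4xCHI (−0.33) and in the trend (−0.00326), of Abca1 (−0.0357), Lrp1 (−0.0752) and Abcg1 (−0.0296) in 5xCHI against 1xCHI, and of Abcg1 at 30 min after 1xCHI against sham (0.000596, with 1 injured mouse, assumed to vary like the other groups). Without samples 10 and 11, r turned in 8 of 36 pairs, among them from 0.41 to −0.13 for Clu and Abca1, from 0.46 to −0.0202 for Apod and Abca1, from 0.39 to −0.0503 for Apod and Abcg1, and from 0.27 to −0.41 for Abca1 and Lcat. The causes were not tested. For 5xCHI against 1xCHI, DESeq2 called 523 genes where edgeR called 167, a covariate for the sample set 385, the sample number as a covariate 283, no filter 99 and the compared groups alone 0. DESeq2 called 52 against 22 for 30 min against 24 h, 53 against 5 for any time point, and 1 to 28 genes in 10 comparisons where edgeR called 0. No paired analysis was possible because sample numbers are unique to each mouse. Depth limits Lcat most, at 8.06 CPM in its lowest sample.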

Other observations

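Of the fits, sample 30 (3xCHI at 4 h) entered only the alternative with all 40 samples. It had 1560 CPM of Apoe, 713 of Clu, 119 of Apod, 31.5 of Abca1, 72.7 of Abcg1, 8.81 of Lcat, 361 of Lrp1, 62.3 of Lrp8 and 86.9 of Vldlr. Its Apoe and Clu values lay below both other mice of its group, at 2082 and 2144 CPM and at 807 and 861 CPM, which belong to samples 1 to 18. Over all injury groups together, which are unequally divided between the sets, Apoe was 2199 ± 380 CPM (SD, n = 18) in samples 1 to 18 and 1684 ± 209 CPM (SD, n = 21) in samples 19 to 40, and Clu was 859 ± 138 and 744 ± 47.8 CPM. Vldlr was 66.1 ± 8.69 and 85.4 ± 9.73 CPM, in the other direction. Because the split was chosen from these data, these levels are given without a test. Among sham-injured mice Apoe was 1715 CPM in the 1 mouse of samples 1 to 18, within the 1424 to 1859 CPM of the 3 in samples 19 to 40.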
